A study of Xenopus laevis with 6 samples.

Results

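The kdm5 demethylase family was examined in poly(A) RNA of whole *Xenopus laevis* embryos. Its members were the gene models whose symbol, without the ending .L or .S, is *kdm5a*, *kdm5b*, *kdm5c* or *kdm5d*. This rule gave 4 of the 35773 gene models in the count table, namely *kdm5b.L*, *kdm5b.S*, *kdm5c.L* and *kdm5c.S*, and all 4 passed the filter on low counts in every comparison. *kdm5a* and *kdm5d* were not analysed here. A pair of models spelled *kdm5a-like.1.L* and *kdm5a-like.1.S* lies outside the rule and is described beside the members without being counted among them. These 2 models were taken up after their names and values had been seen. The endings L and S mark the long and short chromosome sets of the allotetraploid frog genome, so that *kdm5b.L* and *kdm5b.S* are homeologs, that is, copies of 1 gene that came together in the genome duplication.

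KDM5 proteins are JmjC-domain enzymes that remove methyl groups from lysine 4 of histone H3 (H3K4), a mark whose trimethylated form lies at the promoters of active genes. KDM5B acts as a transcriptional repressor in proliferating cells, and KDM5C, encoded on the X chromosome in mammals, is known for its role in neurons and for its mutation in intellectual disability. KDM5A was first known as a binding partner of the retinoblastoma protein, and KDM5D is encoded on the Y chromosome in mammals.

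The libraries fall into 3 groups of 2. All embryos were at NF stage 32, a late tailbud stage. *kdm5c* MO embryos had been injected with a morpholino oligonucleotide (MO) against *kdm5c*, an antisense compound made to block translation of its mRNA. *kdm3a* MO embryos had been injected with a morpholino against *kdm3a*, which encodes a demethylase of histone H3 lysine 9. Control embryos carried neither of these morpholinos, and the labels do not say whether they were injected. The injection was made at the 2-cell stage by the labels and at the 1-cell stage by the study's methods. Nothing in the labels says how many embryos or which clutches made up a library, so p-values measure only the spread between these libraries. The labels of the *kdm3a* MO libraries, numbered 3 and 4, are dated later than the remaining labels, and the condition and the label date cannot be told apart. Since the *kdm5c* morpholino acts on translation, the *kdm5c* counts cannot check the labels.

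The libraries held 12838245 to 20217436 counts, and 3 counts, the smallest number treated as detection, corresponded to 0.143 to 0.303 CPM (counts scaled to a common library size). The CPM values were scaled by TMM (the trimmed mean of M values), a method that takes most genes as unchanged. The other 5 libraries had scaling factors of 1.02 to 1.16 and *kdm5c* MO 1 one of 0.710, so that library stood apart, and results that rest on it are given with and without it. Control 1 was the lowest of the control and *kdm5c* MO libraries in 8288 of 26152 genes. It was so in 26 of 29 copies of neuronal targets of the repressor REST and 10 of 12 copies of muscle markers. For the neural markers this held in 4 of 9 copies, and for the eye and lens markers in 6 of 12. Lists are therefore also given without control 1. The summed level of 12 muscle marker copies was 30956 CPM in *kdm5c* MO 1 and 3801 CPM in control 1, and 9951 to 19591 CPM in the other 4 libraries. All copies of the muscle and neural markers were detected in every library, while 4 of the 12 eye and lens copies were at 0 in control 1. Low counts were mostly even (at least 89.7% of the counts from 1 to 20 in each library), a pattern that counting each read of a pair would give.

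*kdm5c*, the gene targeted in the *kdm5c* MO embryos, had summed transcript levels between 171 and 208 CPM in the 6 libraries. For both copies together, the level was 176.9 and 171 CPM in control 1 and control 2, 177.0 and 195 CPM in *kdm5c* MO 1 and 2, and 198 and 208 CPM in *kdm3a* MO 3 and 4. After TMM scaling both *kdm5c* MO libraries lay above both controls, *kdm5c* MO 1 and control 1 being nearly equal, and both *kdm3a* MO libraries lay above these. The place of *kdm5c* MO 1 rests on its scaling factor of 0.710. Before scaling it held 1750 *kdm5c* counts of 13943342, and control 1 held 2637 of 14603570. Of single gene models, 17.8% had both *kdm5c* MO libraries above both controls, and no such share was counted for summed copies. For the summed copies the log2 fold change was 0.078 (SE 0.58) in *kdm5c* MO against control embryos, and the adjusted p was 1 (edgeR, exact test).

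The copies *kdm5c.L* and *kdm5c.S* did not vary in parallel. *kdm5c.L* had 1723 and 1849 counts (116 and 108 CPM) in the controls, 1407 and 1702 counts (142 and 129 CPM) in the *kdm5c* MO libraries, and 2860 and 2008 counts (136 CPM in both) in the *kdm3a* MO libraries. Both controls were the lowest libraries and *kdm5c* MO 1 the highest, so that neither knockdown group overlapped with control. The group means were 112 ± 5.14 CPM in control, 136 ± 9.24 CPM in *kdm5c* MO and 136 ± 0.196 CPM in *kdm3a* MO embryos (SD, n = 2 each). The log2 fold change in *kdm5c* MO against control embryos was 0.28 (SE 0.61, 95% interval -0.92 to 1.48), with an adjusted p of 1 by edgeR's exact test. With libraries scaled by their totals alone, the groups overlapped and the log2 fold change of *kdm5c.L* was -0.062. That scaling also moved the median over all genes from -0.016 to -0.34.

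*kdm5c.S* had 914 and 1070 counts (61.3 and 62.7 CPM) in the controls, 343 and 860 counts (34.7 and 65.3 CPM) in the *kdm5c* MO libraries, and 1296 and 1070 counts (61.7 and 72.5 CPM) in the *kdm3a* MO libraries. Only *kdm5c* MO 1 was low, whereas *kdm5c* MO 2 lay slightly above both controls. The group means were 62.0 ± 0.965 CPM in control, 50.0 ± 21.6 CPM in *kdm5c* MO and 67.1 ± 7.58 CPM in *kdm3a* MO embryos (SD, n = 2 each), and all 3 groups overlapped. In *kdm5c* MO against control embryos its log2 fold change was -0.31 (SE 0.64), with an adjusted p of 1 by edgeR's exact test. Without *kdm5c* MO 1 it was 0.057.

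*kdm5b*, which encodes a repressive family member, was lower in both *kdm5c* MO libraries than in both controls, in each of its copies. *kdm5b.L* had 1677 and 1429 counts (113 and 83.7 CPM) in the controls, 563 and 975 counts (56.9 and 74.0 CPM) in the *kdm5c* MO libraries, and 1853 and 1309 counts (88.3 and 88.6 CPM) in the *kdm3a* MO libraries. Control 1 was the highest and *kdm5c* MO 1 the lowest, 1.98-fold apart. The group means were 98.1 ± 20.4 CPM in control, 65.5 ± 12.1 CPM in *kdm5c* MO and 88.5 ± 0.256 CPM in *kdm3a* MO embryos (SD, n = 2 each).

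*kdm5b.S* had 2916 and 2190 counts (196 and 128 CPM) in the controls, 759 and 1414 counts (76.8 and 107 CPM) in the *kdm5c* MO libraries, and 2348 and 2575 counts (112 and 174 CPM) in the *kdm3a* MO libraries. Again control 1 was the highest and *kdm5c* MO 1 the lowest, 2.55-fold apart, and the *kdm3a* MO libraries overlapped with the controls. The group means were 162 ± 47.6 CPM in control, 92.1 ± 21.6 CPM in *kdm5c* MO and 143 ± 44.2 CPM in *kdm3a* MO embryos (SD, n = 2 each). The controls themselves differed by 1.52-fold, and the *kdm3a* MO libraries by 1.56-fold.

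The differences in *kdm5b* did not pass the test. In *kdm5c* MO against control embryos the log2 fold change was -0.58 for *kdm5b.L* (SE 0.62, 95% interval -1.79 to 0.63, unadjusted p = 0.357) and -0.81 for *kdm5b.S* (SE 0.65, 95% interval -2.08 to 0.46, unadjusted p = 0.219). By edgeR's exact test with adjustment over all genes, the adjusted p was 1 for both. Without *kdm5c* MO 1 these values were -0.42 and -0.61, and without control 1 they were -0.35 and -0.48. For single libraries of *kdm5b.S*, the log2 difference ranged from -0.26 (*kdm5c* MO 2 against control 2) to -1.33 (*kdm5c* MO 1 against control 1).

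**Figure D1:**
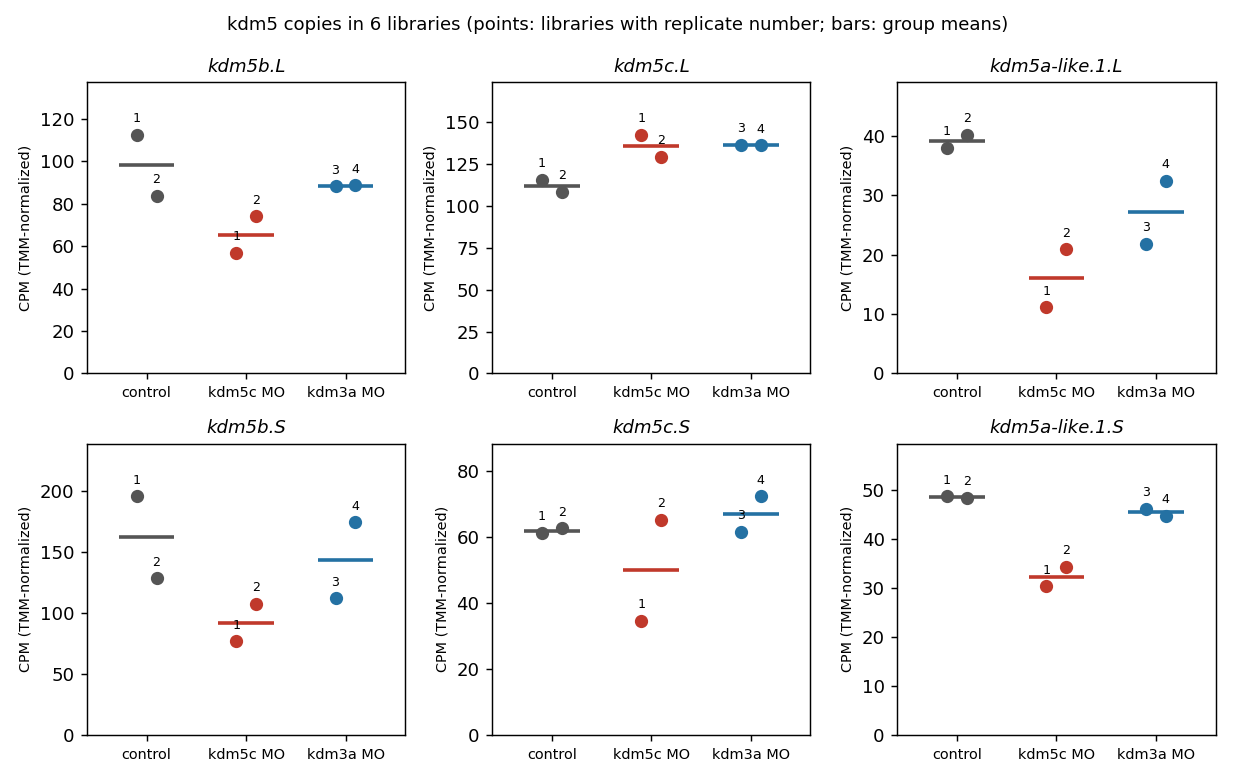
Level in TMM-normalized CPM (y axis, from 0, with a scale of its own in each panel) of the kdm5 copies and of the *kdm5a-like.1* copies in each library, by group (x axis). Points are libraries with their replicate number and bars are group means; the *kdm5c* MO points of *kdm5b.L* and *kdm5b.S* lie below both control points, those of *kdm5c.L* lie above them, and for *kdm5c.S* only *kdm5c* MO 1, at 34.7 CPM, is low.

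Of the 4 members, 0 passed the limits of the study's methods, a false discovery rate (FDR) below 0.01 and a change of more than 4-fold, in *kdm5c* MO against control embryos. None of the 26152 genes tested did so (0%), while 11 of 27671 did without control 1, again with 0 members. By the same limits, edgeR's quasi-likelihood test called 0 members and 0 genes. DESeq2 called 0 members and 0 genes (0%) with its default filtering, which left the adjusted p undefined for 24844 of the genes and all 4 members, and 0 members and 7 genes (0.0268%) without that filtering. At an unadjusted p below 0.05 by edgeR's exact test, 0 of the 4 members stood against 4.29% of all genes, and 0 did so by the quasi-likelihood test (3.38% of all genes) and DESeq2 (5.92%).

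For 2 of the 4 members, both *kdm5c* MO libraries were lower than both controls, against 17.9% of all genes tested, and for 1 member both were higher, against 17.8% of all genes. The median log2 fold change over the 4 members was -0.44, and over all genes -0.016. *kdm5c* MO 1 was the lowest of the 6 libraries in 3 members and the highest in *kdm5c.L*. With 2 libraries against 2, an exact permutation test of a single value cannot give a p below 0.333.

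In *kdm3a* MO against control embryos, the log2 fold changes of the members were closer to 0 than in *kdm5c* MO against control embryos. The log2 fold change was -0.18 (SE 0.58) for *kdm5b.L*, -0.20 (SE 0.63) for *kdm5b.S*, 0.25 (SE 0.58) for *kdm5c.L* and 0.085 (SE 0.56) for *kdm5c.S*, with adjusted p = 1 for each by edgeR's exact test. Only *kdm5c.L* had both *kdm3a* MO libraries on 1 side of both controls, above them, as did 15.9% of the 26491 genes tested. Of all genes, 33 (0.125%) passed both limits, and 0 of them were members. At an unadjusted p below 0.05, there were 0 members against 3.2% of all genes, also 0 by the quasi-likelihood test (2.7% of all genes) and DESeq2 (4.44%). DESeq2 called 83 genes (0.313%) with its default filtering and 81 (0.306%) without, again 0 of them members. These comparisons share their control libraries with those of the *kdm5c* MO embryos, and the values stand side by side only.

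In *kdm3a* MO against *kdm5c* MO embryos, *kdm5b* had the higher values in *kdm3a* MO embryos. The log2 fold change was 0.43 (SE 0.53) for *kdm5b.L* and 0.63 (SE 0.57) for *kdm5b.S*, with both *kdm3a* MO libraries above both *kdm5c* MO libraries, as in 18.1% of the 26092 genes tested. For *kdm5b.S* the groups overlapped under upper-quartile normalization. *kdm5c.L* had overlapping groups, with a log2 fold change of -0.0045 and a 95% interval of -1.05 to 1.04. *kdm5c.S* had a log2 fold change of 0.42 (SE 0.57), which was 0.064 without *kdm5c* MO 1. Each of these had an adjusted p of 1 by edgeR's exact test, and 0 members passed both limits, against 14 genes (0.0537%) by that test and 22 (0.0843%) by DESeq2. At an unadjusted p below 0.05 there were 0 members by edgeR's exact test, the quasi-likelihood test and DESeq2, against 4.65%, 4.2% and 5.88% of all genes.

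**Figure D2:**
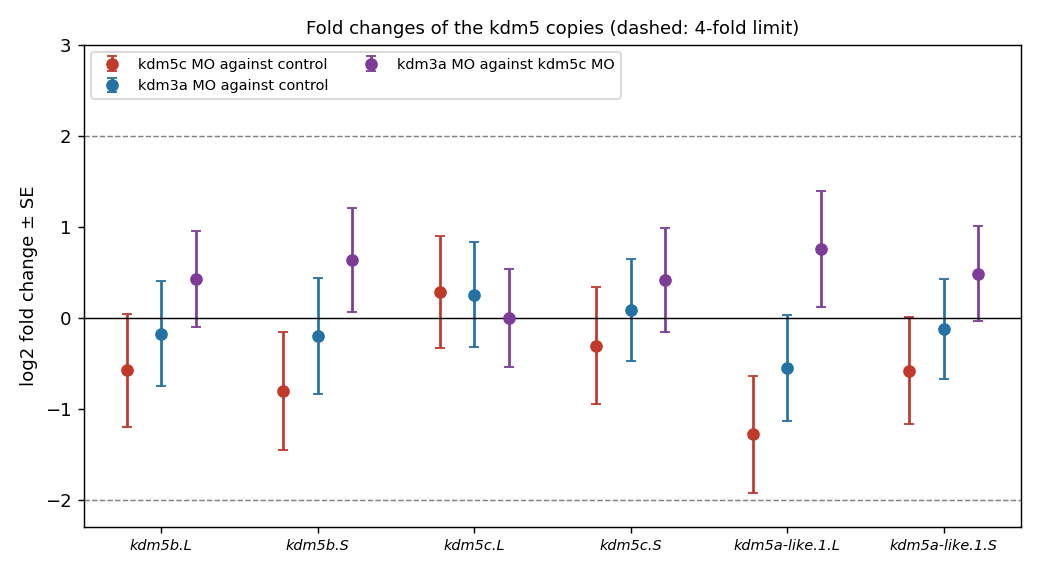
Log2 fold change (y axis) of each copy (x axis) in the 3 comparisons, with bars for the SE from the fitted count model and dashed lines at the 4-fold limit. Every point lies inside the limit, and the values of *kdm5b.L* and *kdm5b.S* are below 0 in both comparisons with control and above 0 in *kdm3a* MO against *kdm5c* MO embryos.

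The share of a gene's counts on its L copy does not depend on how libraries are scaled. Transcript lengths were not used, so the share compares libraries and not the levels of the homeologs with each other. Intervals here are exact Clopper-Pearson 95% intervals on halved counts, and they cover counting error only. Reads that match both homeologs could have been divided in a way the sources do not describe, so these shares are uncertain to that extent. For *kdm5b* the L copy held 36.5% and 39.5% of counts in the controls, 42.6% and 40.8% in the *kdm5c* MO libraries, and 44.1% and 33.7% in the *kdm3a* MO libraries. The L copy of *kdm5b* thus held fewer counts than the S copy in all 6 libraries, and the *kdm3a* MO libraries had both the highest and the lowest share.

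For *kdm5c* the L copy held 65.3% (62.7% to 67.9%) and 63.3% (60.8% to 65.8%) in the controls and 80.4% (77.6% to 82.9%) and 66.4% (63.8% to 69.0%) in the *kdm5c* MO libraries. In the *kdm3a* MO libraries it held 68.8% and 65.2%. The library *kdm5c* MO 1 stood above all others, while the interval of *kdm5c* MO 2 overlapped with those of both controls. The mean was 64.3% ± 1.41 in control and 73.4% ± 9.88 in *kdm5c* MO embryos (SD, n = 2 each).

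The change of the L share was tested for every symbol with both copies, as the log2 fold change of L minus that of S. It was 0.59 for *kdm5c* (unadjusted p = 0.355) and 0.23 for *kdm5b* (unadjusted p = 0.726) in *kdm5c* MO against control embryos, and the adjusted p was 0.999 for both (edgeR, test of differential usage). Without *kdm5c* MO 1, the value of *kdm5c* was 0.13. At an FDR below 0.05, 0 of the 2 genes and 0 of 7705 symbols (0%) were called. At an unadjusted p below 0.05 there were 0 of the 2 genes and 44 symbols (0.571%). In *kdm3a* MO against control embryos the values were 0.025 for *kdm5b* and 0.17 for *kdm5c*, with an adjusted p of 0.9996 in the same edgeR test, and 80 of 7820 symbols (1.02%) had an unadjusted p below 0.05. In *kdm3a* MO against *kdm5c* MO embryos they were -0.20 and -0.42 (adjusted p = 0.999, same edgeR test), with 74 of 7687 symbols (0.963%) at that unadjusted p. Neither *kdm5b* nor *kdm5c* was among them, and 0 symbols (0%) were called in either comparison.

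**Figure D3:**
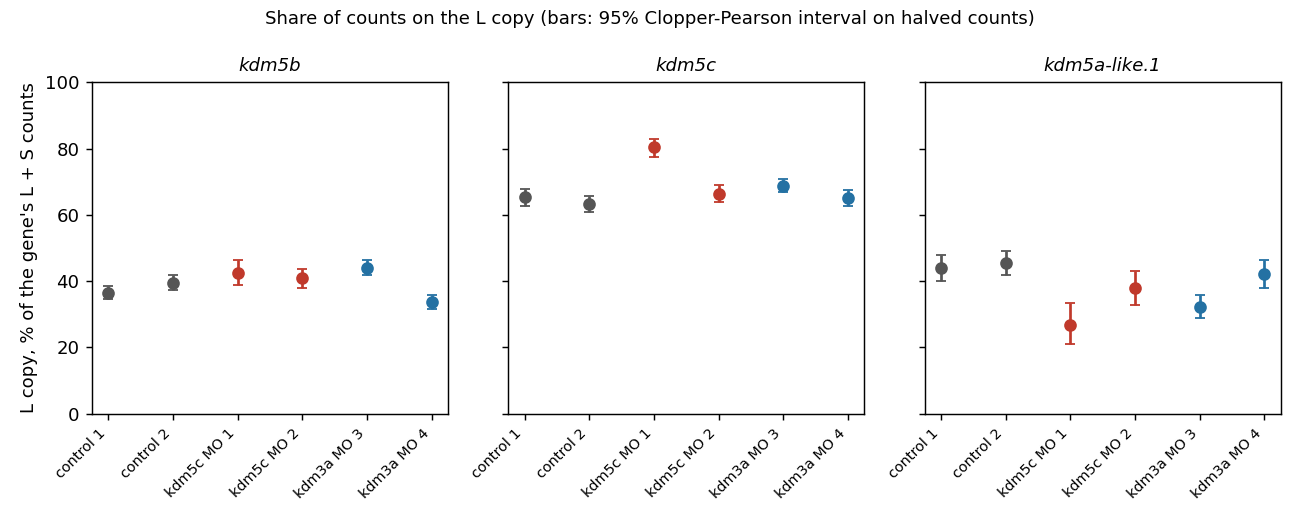
Share of counts on the L copy, in percent of the counts of both copies (y axis), for *kdm5b*, *kdm5c* and *kdm5a-like.1* in each library (x axis). Bars are 95% Clopper-Pearson intervals on halved counts, for counting error only; *kdm5b* lies between 33.7% and 44.1%, and *kdm5c* between 63.3% and 68.8% except for *kdm5c* MO 1 at 80.4%.

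The division of counts between the 2 genes is likewise free of scaling. *kdm5c* held 36.5% (34.9% to 38.1%) and 44.6% (42.9% to 46.4%) of the counts of the 4 copies in the controls, 57.0% (54.4% to 59.5%) and 51.7% (49.7% to 53.7%) in the *kdm5c* MO libraries, and 49.7% and 44.2% in the *kdm3a* MO libraries. Both *kdm5c* MO libraries lay above both controls, and these intervals did not overlap. The interval of *kdm3a* MO 3 (48.2% to 51.3%) also lay above those of both controls, and it overlapped with that of *kdm5c* MO 2. That of *kdm3a* MO 4 (42.6% to 45.9%) overlapped with that of control 2. How often other pairs of genes separate the groups in this way was not counted. The controls also differed from each other by more than their intervals, so libraries of 1 group varied beyond counting error. *kdm5c.L* alone held 23.8% and 28.3% in the controls and 45.8% and 34.4% in the *kdm5c* MO libraries, whereas *kdm5b.S* held 40.3% and 33.5% against 24.7% and 28.6%. No test was run on this division, and since transcript lengths were not used, it compares libraries and not the levels of the genes with each other.

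**Figure D4:**
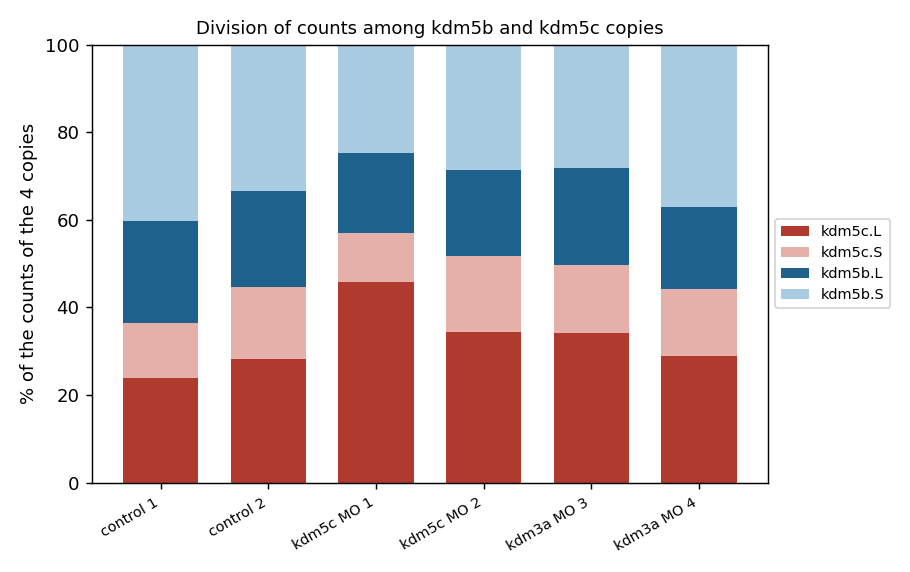
Stacked bars of the percent of the counts of the 4 copies that each copy held (y axis, 0 to 100) in each library (x axis). The *kdm5c* part, at the bottom, is 36.5% and 44.6% in the controls and 57.0% and 51.7% in the *kdm5c* MO libraries.

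The *kdm5a-like.1* copies, which lie outside the rule, were lower in *kdm5c* MO embryos too. *kdm5a-like.1.L* had 566 and 686 counts (38.0 and 40.2 CPM) in the controls, 110 and 275 counts (11.1 and 20.9 CPM) in the *kdm5c* MO libraries, and 459 and 479 counts (21.9 and 32.4 CPM) in the *kdm3a* MO libraries. The 3 groups did not overlap, with control highest and *kdm5c* MO lowest. Taken pair by pair, *kdm5c* MO was wholly under control in 17.9% of all genes tested, and *kdm3a* MO was so in 16.1%. The share with *kdm3a* MO wholly over *kdm5c* MO was 18.1%. How many genes had all 3 groups apart in this order was not counted. The log2 fold change of *kdm5a-like.1.L* in *kdm5c* MO against control embryos was -1.28 (SE 0.64) with an unadjusted p of 0.0506 by edgeR's exact test, 0.0444 by its quasi-likelihood test and 0.0362 by DESeq2. The adjusted p was 1, 0.990 and, without independent filtering, 0.787, and without *kdm5c* MO 1 the log2 fold change was -0.92. Of all genes, 3.38% had an unadjusted p below 0.05 by the quasi-likelihood test and 5.92% by DESeq2.

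*kdm5a-like.1.S* was at 48.6 and 48.3 CPM in the controls, 30.2 and 34.2 CPM in the *kdm5c* MO libraries and 46.1 and 44.6 CPM in the *kdm3a* MO libraries. The groups did not overlap here either, again a pattern whose share over all genes was not counted. The log2 fold change of *kdm5a-like.1.S* in *kdm5c* MO against control embryos was -0.58 (SE 0.59), with an adjusted p of 1 by edgeR's exact test. The L copy of *kdm5a-like.1* held 43.8% and 45.4% of the pair's counts in the controls and 26.9% and 37.9% in the *kdm5c* MO libraries. In the *kdm3a* MO libraries it held 32.2% and 42.1%, also below both controls. For *kdm5c* MO against control embryos, L minus S was -0.70 on the log2 scale (adjusted p = 0.999 in edgeR's test of differential usage).

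Across the 6 libraries, the homeologs of *kdm5b* varied together (Pearson's r = 0.91 on log2 of CPM + 0.5), and those of *kdm5c* did not (r = -0.39). These r values describe 6 libraries that share groups and scaling, and *kdm5c* MO 1 enters each of them. Among 16490 symbol-named genes with a mean of at least 5 CPM, the pattern most like *kdm5b.L* was that of *kbtbd7.S* (r = 0.998), followed by *pias3.S* and *dnajc10.S*. For *kdm5b.S* these were *zfyve28-like.2.S*, *chst3.S* and *osbpl8.L*, and for *kdm5c.S* they were *map3k5.S*, *clec16a.S* and *ppp1cc.S*. *kdm5c.L* had fewer genes of like pattern, with *dhrs7.L* (r = 0.989), *epb41l4a.S* and *arpc1b.S* first. An r above 0.9 was reached by 2.61% of genes with *kdm5b.L*, 3.37% with *kdm5b.S*, 2.67% with *kdm5c.S* and 0.418% with *kdm5c.L*. For the members' summed level, *pax3.S*, a copy of a transcription factor gene of the neural plate border, came first (r = 0.998), followed by *cpeb2-like.L* and *rras.S*. Here an r above 0.9 was reached by 2.55% of 16487 genes. *pax3.S* was at 24.96 and 15.5 CPM in the controls and 9.31 and 14.2 CPM in the *kdm5c* MO libraries.

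The genes that work with or against KDM5 at H3K4 were examined in lists of known function, and 0 copies of any list passed both limits in *kdm5c* MO against control embryos, as for all genes (0%). Counts of lower values stand against 50.8% of all genes, and medians against -0.016 over all genes. All 9 tested copies of the H3K4 methyltransferases, the enzymes that write the mark, had values below 0 (median log2 fold change -0.80). They ranged from *setd1a.S* at -1.76 to *setd7.L* at -0.46. *setd1a.S* was at 24.1 and 19.7 CPM in the controls, 3.14 and 9.72 CPM in the *kdm5c* MO libraries and 2.29 and 16.5 CPM in the *kdm3a* MO libraries. Its unadjusted p in *kdm5c* MO against control embryos was 0.0342 (adjusted p = 1, edgeR's exact test), and it was lowest in *kdm5c* MO 1 and *kdm3a* MO 3.

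Subunits of the methyltransferase complexes were lower in 16 of 22 copies (median -0.31), from *hcfc1.S* at -1.90 to *pagr1.L* at 1.31. *hcfc1.S*, which encodes a cell cycle cofactor of these complexes, was at 113 and 95.7 CPM in the controls, 11.3 and 44.6 CPM in the *kdm5c* MO libraries and 10.3 and 60.6 CPM in the *kdm3a* MO libraries. As for *setd1a.S*, the low libraries were *kdm5c* MO 1 and *kdm3a* MO 3. At an unadjusted p below 0.05 by edgeR's exact test stood 3 of the 22 copies, all of them lower. Of all genes, 4.29% had such a p, and 1.01% had it with a lower value. The 3 copies were *hcfc1.S*, *hcfc1.L* and *ash2l.L*, of which the last 2 were picked out after their values were seen.

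The other demethylases of H3K4 were lower in 5 of 5 copies (median -0.63), from *kdm1a.L* at -1.11 to *kdm1a.S* at -0.26, and 0 had an unadjusted p below 0.05 by edgeR's exact test. Relatives that share the JmjN domain, *jarid2* and the *kdm4* genes, were lower in 6 of 6 copies (median -0.62), from *jarid2.S* at -0.81 to *kdm4c.L* at -0.22. Known partners of KDM5 proteins, such as SIN3 and histone deacetylase subunits, REST and the retinoblastoma family, were lower in 24 of 27 copies (median -0.59), from *rest.L* at -1.82 to *hdac2.L* at 0.87. *rest.L*, a copy of the gene for a repressor of neuronal genes, was at 23.0 and 19.2 CPM in the controls, 1.01 and 10.9 CPM in the *kdm5c* MO libraries and 1.14 and 24.5 CPM in the *kdm3a* MO libraries. Readers of trimethylated H3K4 were lower in 16 of 22 copies (median -0.37), from *bptf.S* at -1.72 to *ing2.S* at 1.51. Among the JmjN relatives, the partners and the readers, 0 copies had an unadjusted p below 0.05 by edgeR's exact test.

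With *kdm5c* MO 1 left out, the median was -1.03 for the methyltransferases (8 of 9 lower), -0.35 for the complex subunits (17 of 22), -0.63 for the other demethylases (5 of 5), -0.48 for the JmjN relatives (6 of 6), -0.46 for the partners (24 of 27) and -0.31 for the readers (18 of 22), against -0.049 over all genes. In that fit, 0 copies of these lists had an unadjusted p below 0.05 by edgeR's exact test, against 100 of 27602 genes. Without control 1 the medians were -0.82 for the methyltransferases (9 of 9 lower), -0.12 for the complex subunits (13 of 22), -0.38 for the other demethylases (5 of 5) and the JmjN relatives (6 of 6), -0.36 for the partners (22 of 27) and -0.046 for the readers (12 of 22), against -0.014 over all genes. Most of these lists were also lower in *kdm3a* MO against control embryos, a comparison with the same controls. There 6 of 9 methyltransferase copies (median -0.39), 19 of 22 complex subunits (-0.50) and 5 of 5 other demethylases (-0.53) were lower. So were 23 of 27 partners (-0.49) and 14 of 22 readers (-0.25), but only 2 of 6 JmjN relatives (0.30), against 50.9% of all genes (-0.015).

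Gene groups that KDM5 proteins or their partners are known to act on in mammals were examined in the same way, again with 0 copies past both limits and 0 at an unadjusted p below 0.05 by edgeR's exact test. Germline genes were higher in 9 of the 13 copies tested out of 22 (median 0.10, and 0.44 without control 1), from *dnd1.L* at -1.20 to *sycp2.L* at 1.24. Neuronal targets of REST were higher in 22 of 29 copies (median 0.53), from *grin1.L* at -0.87 to *nefl.S* at 2.51. Their direction turned with 1 library, since without control 1 the median was -0.31, with 12 of 31 copies higher. Both *kdm5c* MO libraries lay above both controls in 3 of the 29 copies, against 17.8% of all genes, and without *kdm5c* MO 1 the median was 0.25, with 21 of 31 copies higher. *nefl.S*, which encodes the light neurofilament subunit, had 2 and 30 counts in the controls, 69 and 52 in the *kdm5c* MO libraries and 105 and 6 in the *kdm3a* MO libraries, so the *kdm5c* MO libraries lay above both controls and the *kdm3a* MO libraries fell on both sides of the second control. Cell cycle genes regulated by E2F were lower in 17 of 29 copies (median -0.13, and 0.084 with 14 of 29 lower without control 1), from *mcm6.L* at -1.85 to *dhfr.L* at 1.19. *mcm6.L* had 68 counts in control 1 and between 4 and 10 in the other 5 libraries. The REST targets were also higher in *kdm3a* MO against control embryos, with the same controls, in 28 of 31 copies (median 0.51). In *kdm3a* MO against *kdm5c* MO embryos 15 of 29 copies were higher (median 0.026).

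Markers of other tissues differed beside these values. In *kdm5c* MO against control embryos the muscle markers were higher in 11 of 12 copies (median 1.57), with 0 past both limits. At an unadjusted p below 0.05 by edgeR's exact test stood 4 of them, all higher. Of all genes, 4.29% had such a p, and 3.29% had it with a higher value. The 4 copies were *tnni2.L*, *tnni2.S*, *tnnc2.S* and *mylpf.L*, which were picked out after their values were seen. Without *kdm5c* MO 1 the muscle median was 0.69 and without control 1 it was 1.21, each with 0 copies at that p. Muscle markers were also higher in *kdm3a* MO against control embryos, in 10 of 12 copies (median 0.93). The summed muscle level of *kdm5c* MO 2 was 9951 CPM, against 3801 CPM in control 1 and 10053 CPM in control 2. The neural markers were lower in 6 of 9 copies (median -0.48, -0.16 without *kdm5c* MO 1 and -0.20 without control 1), with *elavl3.L* at -1.31, *elavl3.S* at -1.93, *tubb2b.L* at 0.69 and *tubb2b.S* at 1.17, which were picked out after their values were seen. Their sum was 549 and 726 CPM in the controls and 1015 and 713 CPM in the *kdm5c* MO libraries. It was mostly *tubb2b* in the *kdm5c* MO libraries and in control 2, and not in control 1. The eye and lens markers were lower in 6 of 12 copies (median -0.067, -0.56 without *kdm5c* MO 1 and -0.11 without control 1), and their sum was 174 and 191 CPM in the controls and 194 and 126 CPM in the *kdm5c* MO libraries. In RNA of whole embryos, fewer cells of a type and less RNA per cell cannot be told apart, and the part of tissue makeup in the values of the kdm5 copies was not tested.

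**Figure D5:**
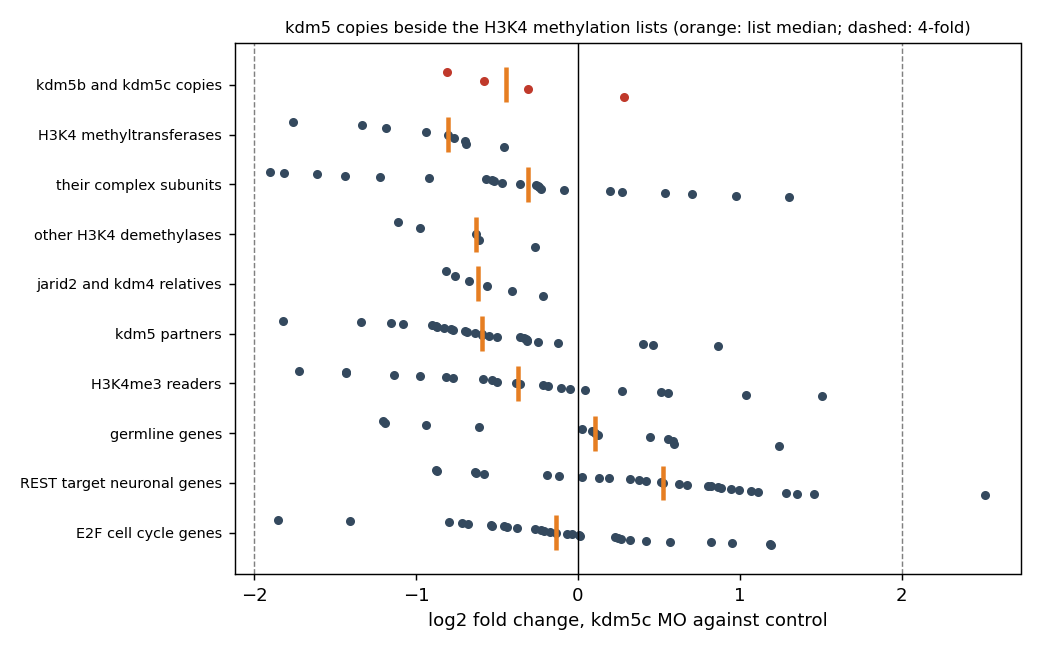
Log2 fold change in *kdm5c* MO against control embryos (x axis) of the kdm5 copies (red) and of the tested copies of each of the 9 lists drawn, tissue markers not among them (dark points, 1 row per list), with the list's median in orange and dashed lines at the 4-fold limit. The members run from -0.81 to 0.28, and *nefl.S*, at 2.51, is the 1 plotted point beyond the limit.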

How the data were processed

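Poly(A) RNA of whole embryos was sequenced in 6 libraries, and the labels gave the group and replicate number of each. For control 2 the description has the number 3, and the number of the title was kept. Reads had been aligned by the authors to cDNA sequences of the *X. laevis* genome project with BWA (0.7.10 in the submitters' processing notes), and the deposited values are raw counts per gene model, without normalization. How read pairs and reads matching several models were counted is not given in the sources used here.

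Genes with low counts were removed by filterByExpr, libraries were scaled by TMM, and groups were compared in edgeR 4.0.16 (R 4.3.3) by its exact test with classic dispersions and Benjamini-Hochberg adjustment over all genes. Each fit used the 4 libraries of its comparison. The limits, an FDR below 0.01 and more than 4-fold, follow the study's methods. SEs come from the negative binomial fit at each gene's dispersion, and intervals are 95%. CPM per library come from 1 TMM scaling of all 6 libraries. L shares were compared by edgeR's diffSpliceDGE with the copies as features of 1 gene. The exact test and the test of L shares were tried on simulated data, and the quasi-likelihood test and DESeq2 were not. The test of L shares was tried only at a spread below that of these libraries. There it made more false calls than its FDR limit allows. At a spread like that of these libraries the exact test missed most of the changed genes.

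The members and all lists were chosen with earlier results of these data known. Named genes were the members and the lowest and highest copy of each list in *kdm5c* MO against control embryos. The 3 genes of most like pattern were named too, for each member and for the members' summed level. Alternatives were other normalizations, filters, limits and tests (quasi-likelihood, DESeq2 1.42.0, a replicate block), all 6 libraries in the fit, summed, halved or thinned counts, and each library left out. DESeq2 was planned with its defaults. Turning its independent filtering off was chosen after the default result had been seen, as were counting the *kdm5a-like.1* copies and leaving *kdm5c* MO 1 or control 1 out of the list counts.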

Additional observations from a re-analysis of the deposited data

How the results depend on the processing

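The number of kdm5 copies past both limits was 0 in all 3 comparisons under every alternative and with each library left out, and the number of kdm5 genes with a changed L share was 0 as well. For the direction of single values the cause of a reversal was not tested, except that leaving out a library leaves 1 library in its group, which is then assumed to vary like the other group. In *kdm5c* MO against control embryos, the log2 fold change of *kdm5c.L* was -0.062 with library size only, and that of *kdm5c.S* 0.057 without *kdm5c* MO 1. With each library left out in turn, *kdm5b.L* ranged from -0.86 to -0.35, *kdm5b.S* from -1.16 to -0.48, *kdm5c.L* from 0.19 to 0.32 and *kdm5c.S* from -0.92 to 0.057. In *kdm3a* MO against control embryos, leaving out libraries gave ranges of -0.36 to 0.066 for *kdm5b.L*, -0.58 to 0.15 for *kdm5b.S* and -0.055 to 0.23 for *kdm5c.S*, and -0.25 to 0.38 for L minus S of *kdm5b*. In *kdm3a* MO against *kdm5c* MO embryos, *kdm5c.L* was 0.32 with library size only, 0.027 with no filter, 0.0058 with at least 10 counts in every library and 0.0037 with all 6 libraries in the fit, and ranged from -0.050 to 0.098 with libraries left out. In that comparison L minus S ranged from -0.48 to 0.15 for *kdm5b*, -1.02 to 0.033 for *kdm5c* and -0.067 to 0.71 for *kdm5a-like.1*.

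The deviations of same-numbered control and *kdm5c* MO libraries from their group means had a Pearson's r of 0.24 across 26152 genes. With 2 libraries per group, the other pairing gives the same r with its sign reversed, so this value cannot decide whether numbers mark pairs. The labels do not say that a number marks a shared batch. In the quasi-likelihood test with a replicate block, the log2 fold changes were -0.58 for *kdm5b.L*, -0.80 for *kdm5b.S*, 0.28 for *kdm5c.L* and -0.38 for *kdm5c.S*, and 0 members were called. L minus S with the replicate block was 0.22 for *kdm5b* and 0.66 for *kdm5c*, with 0 genes called. The pairs and the replicate block rest on the numbers of the titles. By the titles, the numbers of the *kdm3a* MO libraries, 3 and 4, are not shared, so no paired analysis was made for them. In its description a control library also has the number 3, and a pairing by that number was not tested. In *kdm5c* MO against control embryos DESeq2 called 0 genes with its default filtering and 7 without, a choice made after the default had been seen, and in *kdm3a* MO against control embryos 83 and 81, against 33 by edgeR's exact test and 0 by its quasi-likelihood test. The members had at least 343 counts in every library, the smallest number being that of *kdm5c.S* in *kdm5c* MO 1. The biological coefficient of variation was 0.647 in *kdm5c* MO and control embryos.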

Other observations

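Genes regulated by E2F, whose repression by the retinoblastoma family involves KDM5A in mammals, had mostly lower values in *kdm3a* MO than in control embryos. Of 28 tested copies, 26 had a log2 fold change below 0 (median -0.86), against 50.9% of all genes (median -0.015). Both *kdm3a* MO libraries lay below both controls in 18 copies, against 16.1% of all genes. By edgeR's exact test 3 copies, all lower, had an unadjusted p below 0.05, against 1.28% of all genes (*mcm2.L*, *mcm2.S* and *mcm5.S*, named after their values were seen). None of the 28 copies passed both limits. The list was not fitted without control 1 in this comparison, so how far these values rest on that library was not tested. In *kdm3a* MO against *kdm5c* MO embryos, which holds no control library, 26 of 28 copies were below 0 (median -0.78), against 48.1% of all genes. Both *kdm3a* MO libraries lay below both *kdm5c* MO libraries in 17 of these copies, against 16.2% of all genes. In *kdm5c* MO against control embryos the same list had 17 of 29 copies below 0. Its median there was -0.13, and 0.084 without control 1.

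*rbl2.L*, a copy of a gene of the retinoblastoma family, was picked out after its values were seen. It was at 18.2 and 22.3 CPM in the controls, 14.4 and 19.7 CPM in the *kdm5c* MO libraries and 78.7 and 66.8 CPM in the *kdm3a* MO libraries. The log2 fold change of *rbl2.L* in *kdm3a* MO against control embryos was 1.81 (SE 0.57), with an unadjusted p of 0.0021 (adjusted p = 0.366, edgeR's exact test), so it did not pass the limits. The other tested copies of the family did not share this rise, with log2 fold changes of -0.79 (*rb1.S*), -0.59 (*rbl1.L*) and 0.35 (*rbl1.S*) in the same comparison. The later label date of the *kdm3a* MO libraries cannot be told apart from the condition.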
